A study of Mus musculus with 16 samples.

Results

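The ubiquitin ligases and regulators of muscle atrophy examined here were 10 genes chosen by name: *Trim63*, *Fbxo32*, *Fbxo30*, *Foxo1*, *Foxo3*, *Klf15*, *Murc*, *Trim54*, *Trim55* and *Nedd4*. They were taken from a table of 26382 genes measured by bulk RNA sequencing of mouse hamstring muscle; 9 matched by symbol, and *Murc* is listed there under its current symbol, *Cavin4*, the name used from here on. The 16 libraries came from 9 female C57BL/6 mice aged 8 to 10 weeks, with no engineered allele named, and muscle was collected on day 14 after injection of protein or PBS. HRS is histidyl-tRNA synthetase, the Jo-1 autoantigen of anti-synthetase myositis, and its injection into muscle is used as a model of that disease. In 5 mice (m862 to m866) the left hamstring was labelled as the injected leg, at 3 to 5 mg/mL HRS, and the right hamstring of the same animals as the PBS leg; these are called HRS legs and contralateral PBS legs. In 2 PBS-only mice (m867 and m868) both legs had received PBS, which gave 4 libraries. A further 2 libraries, of mice m860 and m861, are titled as immunized with a fusion of the antigen to MBP, and their leg is not given; their titles give 2 to 3 mg/mL of the fusion and their treatment label 3 to 5 mg/mL of HRS, and they are called HRS-MBP mice. The protocol describes injection of both legs, whereas the titles give HRS to 1 leg; the titles were followed. The contralateral PBS legs therefore belonged to immunized animals, and the 4 PBS-only libraries to 2 animals.

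In muscle, protein is lost mainly through the ubiquitin-proteasome system, in which ubiquitin ligases choose the proteins to be degraded. A small set of ligases that muscle makes in quantity, above all *Trim63* (MuRF1) and *Fbxo32* (atrogin-1), is known to be induced during disuse, denervation, fasting and glucocorticoid treatment. Their transcription is known to be driven by FOXO factors, which insulin and IGF signalling keep out of the nucleus, and by the glucocorticoid receptor together with *Klf15*.

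The values are normalized counts as the authors deposited them, and fold changes were fitted by limma on log2(normalized count + 0.5) in 1 model of the 4 groups, with adjusted p taken over the 16414 genes whose mean reached 0.5. A gene passed at an adjusted p below 0.05 and was called if its absolute log2 fold change also exceeded 1. All 10 genes were in the tested set. Library depth implied by the smallest step between values ran from 8600000 to 73900000 reads and was least in the right leg of m868, a PBS-only mouse. The HRS leg of m866 stood apart from the other 4 HRS legs. Its summed level of 13 leukocyte markers was 984 normalized counts against 2129 to 4924 in those 4, and its summed level of 18 muscle fibre genes was 212102 against 52316 to 126798. Its leukocyte sum still lay above the 73.8 to 221 of the 9 PBS libraries, whereas its summed fibroblast level (2414 against 1049 to 2606) was within the PBS range and that of regenerating muscle genes (73.5 against 83.9 to 247) below it. Its label was kept, whether it received the full injection was not tested, and the main results are given with and without it. The PBS leg of m866 also stood apart, with the lowest fibre sum of the 9 PBS libraries (154632 against at least 191712) and a summed level of 4 adipocyte markers of 2310 against 235 to 508 in the other 8. The tissue label was borne out by the fibre genes, none of which was at 0 in any library.

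Motifs known for the factors above were looked for in the promoter windows of the 10 genes, and 3 windows are shown because *Trim63*, *Trim54* and *Klf15* were among the strongest responders. The windows are from RefSeq (build GRCm38.p6), run from 250 bases before to 50 bases after the annotated start, and are written 5′ to 3′ on the gene's strand. Capitals mark the letters TGTTCT (a glucocorticoid receptor half-site) and TGTTTAC (a FOXO core), on either strand; E-boxes are not marked.
Trim63 promoter, chr4:134314870-134315169, + strand: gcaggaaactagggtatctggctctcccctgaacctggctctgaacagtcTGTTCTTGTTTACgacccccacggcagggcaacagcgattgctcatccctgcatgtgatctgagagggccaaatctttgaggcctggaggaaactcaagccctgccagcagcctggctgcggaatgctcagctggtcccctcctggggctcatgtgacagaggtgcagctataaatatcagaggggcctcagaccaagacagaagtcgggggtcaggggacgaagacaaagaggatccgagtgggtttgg
Trim54 promoter, chr5:31116362-31116661, + strand: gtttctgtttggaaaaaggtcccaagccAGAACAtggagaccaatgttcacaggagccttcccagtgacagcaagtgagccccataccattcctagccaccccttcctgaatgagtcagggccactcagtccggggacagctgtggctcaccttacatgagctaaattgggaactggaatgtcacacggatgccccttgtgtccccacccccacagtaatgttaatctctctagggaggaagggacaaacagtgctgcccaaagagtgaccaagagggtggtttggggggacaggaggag
Klf15 promoter, chr6:90462326-90462625, + strand: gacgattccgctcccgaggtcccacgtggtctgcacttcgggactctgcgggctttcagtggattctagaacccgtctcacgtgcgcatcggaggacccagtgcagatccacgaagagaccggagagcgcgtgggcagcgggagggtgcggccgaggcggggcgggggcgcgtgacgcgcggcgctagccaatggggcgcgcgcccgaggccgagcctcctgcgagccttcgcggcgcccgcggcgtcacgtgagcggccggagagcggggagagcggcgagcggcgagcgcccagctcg
In *Trim63* the half-site began 200 bases upstream of the start and ran directly into the FOXO core, which began 194 bases upstream, so that 13 adjacent letters are in capitals. Just before this half-site the window reads gaacagtc, which opens with the reverse complement of TGTTC. Paired half-sites were not searched for, so the shares below are for the half-site alone. *Trim54* held the half-site 222 bases upstream, read on the opposite strand, and no FOXO core, and *Klf15* held neither. The *Trim54* window ends at 31116661, before the gene start of 31116712 given below. Its distance is counted from the RefSeq start, which lies upstream of that gene start. Windows were found for 8 of the 10 genes (9 windows, *Nedd4* having more than 1), and *Fbxo32* and *Trim55* had no entry. Among the 8, only *Trim63* held the FOXO core, 3 genes (*Trim63*, *Trim54* and *Nedd4*) held the half-site, and 6 held an E-box (CANNTG), the letters bound by myogenic factors. Among 32851 windows of the same length the core was present in 3.65%, the half-site in 19.0% and the E-box in 72.3%. A match in letters is a description of these windows and not evidence of binding.

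In PBS-injected muscle the 10 genes spanned a wide range of levels. Per kilobase of exon and over the 9 PBS libraries (5 contralateral legs and 4 PBS-only legs), *Trim54* was highest at 252 ± 36.8 normalized counts (SD), followed by *Trim63* at 115 ± 15.2, *Fbxo32* at 86.4 ± 17.1 and *Cavin4* at 79.6 ± 10.8. *Nedd4* (38.0 ± 3.87), *Trim55* (32.3 ± 4.47) and *Klf15* (22.6 ± 2.41) were intermediate. *Foxo3* (4.92 ± 0.54), *Foxo1* (4.04 ± 0.94) and *Fbxo30* (2.85 ± 0.29) were lowest. Neighbours in this order whose intervals of mean ± SD overlapped were *Trim63* and *Fbxo32*, *Fbxo32* and *Cavin4*, *Nedd4* and *Trim55*, *Foxo3* and *Foxo1*, and *Foxo1* and *Fbxo30*. The muscle-restricted ligases of the MuRF family were thus listed far above the FOXO factors per unit length.

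The comparison of HRS legs with the PBS legs of the same mice asked how the antigen-injected muscle differed from the opposite muscle of the same animal. *Trim63*, *Fbxo32*, *Klf15*, *Trim54* and *Trim55* were lower in HRS legs, by 1.6- to 3.08-fold, and no gene of the 10 was higher at the threshold. In bulk muscle, fewer fibres and less of a transcript per fibre cannot be told apart. That was 5 of 10 genes passing in the lower direction, where 25.9% of all tested genes did so, and 4 of 10 called lower, where 6.27% of all tested genes were. The median log2 fold change of the 10 genes was -0.51, beside 0.08 over all tested genes. The 2 FOXO factors, *Fbxo30*, *Nedd4* and *Cavin4* did not pass. Without the HRS leg of m866 the same 5 genes passed as lower, against 30.2% of tested genes, and 4 were called lower, against 9.74%.

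**Figure D1:**
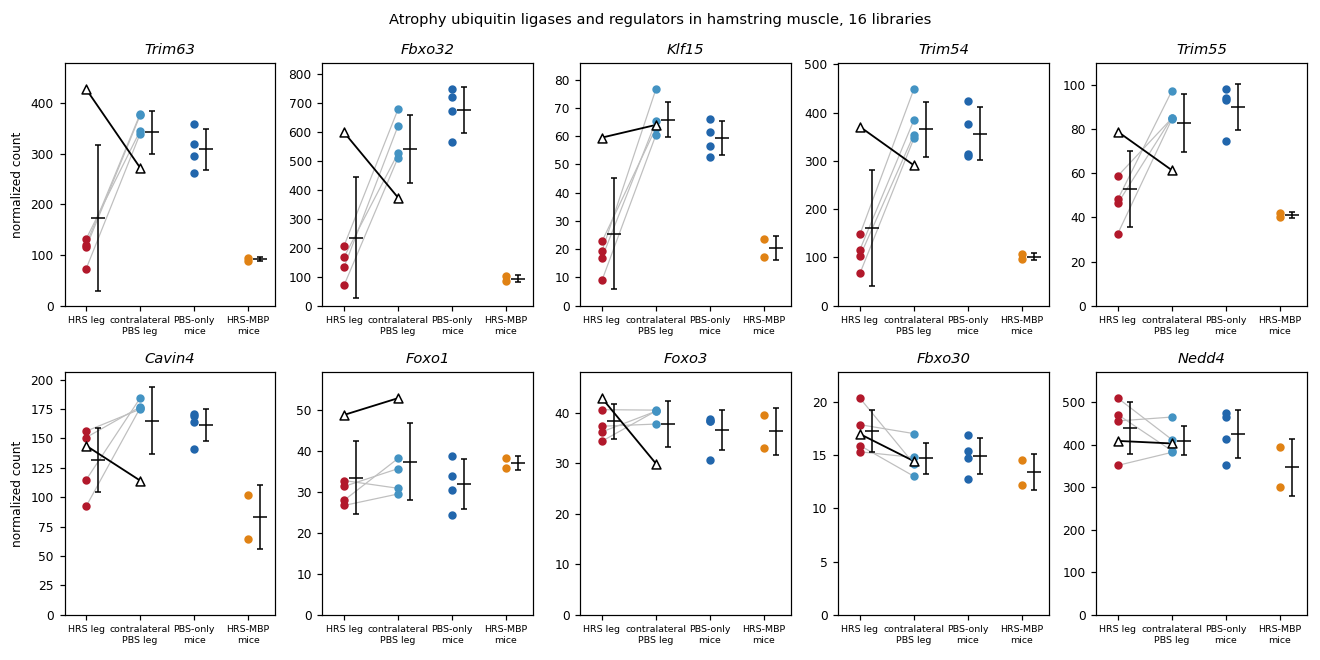
Normalized count (y axis, linear, from 0) of each of the 10 genes in HRS legs (red, n = 5), contralateral PBS legs (light blue, n = 5), PBS-only mice (dark blue, 4 libraries of 2 mice) and HRS-MBP mice (orange, n = 2); lines join the legs of 1 mouse, open triangles mark m866, and bars give mean and SD. In *Trim63*, *Fbxo32*, *Klf15*, *Trim54* and *Trim55* the 4 HRS legs other than m866 and both HRS-MBP libraries lie below all 9 PBS libraries, whereas the lower row overlaps for every gene but *Cavin4* in the HRS-MBP mice.

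*Trim63* encodes MuRF1, a RING-type ligase of the sarcomere whose known substrates include thick-filament proteins (ENSMUSG00000028834, chr4:134315120-134329629, + strand, GRCm38). Its normalized counts in the HRS legs of m862 to m866 were 132, 115, 72.6, 121 and 428, and in their contralateral PBS legs 346, 376, 340, 379 and 273. The PBS-only mice had 360 and 319 (m867, left and right) and 296 and 262 (m868), and the HRS-MBP mice 88.6 and 94.5. The HRS legs of m862 to m865 were below every PBS library, and that of m866 was the highest of all 16 libraries, so the groups overlapped. The fitted log2 fold change between HRS and contralateral PBS legs was -1.26 (SE 0.32, adjusted p = 0.00401), a level 41.7% of that of the PBS legs. Without the HRS leg of m866 it was -1.66 (SE 0.16, adjusted p = 4.45e-07).

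*Fbxo32* encodes atrogin-1, the F-box subunit by which an SCF ligase recognises its substrates in muscle (ENSMUSG00000022358, chr15:58175879-58214932, - strand). The HRS legs of m862 to m866 had 168, 133, 70.5, 207 and 600 normalized counts, and their PBS legs 527, 622, 512, 680 and 374. The PBS-only libraries had 750 and 720 (m867) and 674 and 567 (m868), and the HRS-MBP mice 84.1 and 102. The 4 HRS legs other than m866 and both HRS-MBP libraries lay below the lowest PBS library, which was the PBS leg of m866. The log2 fold change against contralateral PBS legs was -1.55 (SE 0.39, adjusted p = 0.00351), and without the HRS leg of m866 -1.98 (SE 0.25, adjusted p = 5.32e-06).

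*Klf15* encodes a Krüppel-like transcription factor induced by glucocorticoids that is known to act on amino-acid catabolism and on atrophy genes (ENSMUSG00000030087, chr6:90462576-90475238, + strand). Its values in the HRS legs of m862 to m866 were 22.7, 17.0, 8.97, 19.3 and 59.5, and in their PBS legs 63.0, 65.3, 60.5, 76.7 and 64.0. The PBS-only libraries had 66.3 and 61.6 (m867) and 52.6 and 56.7 (m868), and the HRS-MBP mice 17.4 and 23.5. It was the 1 gene of the 10 whose 5 HRS legs all lay below the 5 contralateral PBS legs, a separation that 3.19% of all tested genes had, although the HRS leg of m866 (59.5) was close to the lowest of those PBS legs (60.5). The log2 fold change was -1.62 (SE 0.32, adjusted p = 0.000917), and without the HRS leg of m866 -1.99 (SE 0.20, adjusted p = 6.1e-07).

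*Trim54* and *Trim55* encode MuRF3 and MuRF2, the other two members of the MuRF family, which bind microtubules and the sarcomere and are known to work with MuRF1 (*Trim54*, ENSMUSG00000062077, chr5:31116712-31137630, + strand; *Trim55*, ENSMUSG00000060913, chr3:19644474-19692421, + strand). *Trim54* had 148, 116, 66.7, 102 and 371 normalized counts in the HRS legs of m862 to m866 and 449, 384, 347, 354 and 291 in their PBS legs. The PBS-only libraries, in the same order, had 424, 376, 314 and 311, and the HRS-MBP mice 96.0 and 107. As for *Trim63*, the HRS legs of m862 to m865 were below every PBS library, but that of m866 (371) lay within the PBS range. The log2 fold change of *Trim54* was -1.43 (SE 0.32, adjusted p = 0.00178), or -1.79 (SE 0.19, adjusted p = 1.02e-06) without the HRS leg of m866. *Trim55* had 58.8, 48.2, 32.7, 46.4 and 78.8 in the HRS legs and 84.9, 97.3, 84.5, 85.2 and 61.4 in the PBS legs of the same mice. The PBS-only libraries had 93.0, 94.1, 98.2 and 74.6, and the HRS-MBP mice 42.1 and 40.3. It was the smallest of the 5 falls, at -0.68 (SE 0.19, adjusted p = 0.00572), and -0.84 (SE 0.16, adjusted p = 0.000206) without that leg. With mouse as a fixed block, *Trim55* kept its size but no longer passed (adjusted p = 0.0579), while the other 4 genes passed.

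*Cavin4* encodes MURC, a muscle-restricted coiled-coil protein of caveolae (ENSMUSG00000028348, chr4:48663514-48673502, + strand). Its values in the HRS legs of m862 to m866 were 156, 115, 92.2, 151 and 144, against 175, 184, 176, 177 and 114 in their PBS legs. The PBS-only libraries had 164, 171, 169 and 141, and the HRS-MBP mice 102 and 64.2. HRS and contralateral PBS legs overlapped through the PBS leg of m866, which was the lowest of the 9 PBS libraries, and the log2 fold change of -0.33 (SE 0.17, adjusted p = 0.107) did not pass. Left out, the PBS leg of m866 made the value -0.46 and the adjusted p 0.0223.

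*Foxo1* and *Foxo3* encode the forkhead factors that switch on *Trim63* and *Fbxo32* when Akt signalling is low (*Foxo1*, ENSMUSG00000044167, chr3:52268336-52353221, + strand; *Foxo3*, ENSMUSG00000048756, chr10:42181841-42276755, - strand). *Foxo1* was 33.6 ± 8.91 (SD, n = 5) in HRS legs, 37.5 ± 9.35 (n = 5) in contralateral PBS legs, 31.9 ± 6.12 in the 4 PBS-only libraries and 37.2 ± 1.68 (n = 2) in HRS-MBP mice. In m866 both legs had its highest values, 48.9 and 53.0. *Foxo3* was 38.3 ± 3.43, 37.8 ± 4.53, 36.6 ± 3.94 and 36.4 ± 4.61 in the same groups. Neither transcript passed between HRS and contralateral PBS legs, with a log2 fold change of -0.16 (95% interval -0.55 to 0.23) for *Foxo1* and 0.02 (95% interval -0.21 to 0.25) for *Foxo3*. FOXO activity is set largely by phosphorylation and location of the protein, which these data did not measure.

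*Fbxo30* encodes MUSA1, an F-box ligase subunit known to be under the control of BMP signalling in atrophy (ENSMUSG00000047648, chr10:11281330-11298052, + strand), and *Nedd4* a HECT-type ligase with wide expression (ENSMUSG00000032216, chr9:72662346-72749852, + strand). *Fbxo30* was low everywhere, at 15.3 to 20.3 in HRS legs, 13.0 to 17.0 in contralateral PBS legs, 12.7 to 16.9 in PBS-only libraries and 12.2 and 14.6 in HRS-MBP mice. Its log2 fold change of 0.23 (SE 0.11, adjusted p = 0.0816) did not pass, and without the PBS leg of m863 it was 0.28 with an adjusted p of 0.0459. *Nedd4* ranged from 351 to 509 in HRS legs and from 382 to 465 in contralateral PBS legs, a log2 fold change of 0.09 (95% interval -0.19 to 0.37).

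Compared leg by leg within each mouse, the reduction was uneven across animals. *Trim63* in the HRS leg was 38.1%, 30.6%, 21.4% and 31.9% of the PBS leg in m862 to m865 and 157% of it in m866. *Fbxo32* was 31.8%, 21.4%, 13.8% and 30.5% of the PBS leg in the same 4 mice and 160% of it in m866, where the PBS leg itself had the lowest *Fbxo32* of the 9 PBS libraries. Without the PBS leg of m866 the same 5 genes passed in the fit, *Trim63* at -1.34 (adjusted p = 0.00447) and *Fbxo32* at -1.68 (adjusted p = 0.0033), and *Cavin4* in addition. *Klf15* was 36.1%, 26.0%, 14.8%, 25.2% and 93.0%, the 1 gene of the 10 lower in the HRS leg of all 5 mice, as were 8.97% of tested genes. *Trim63*, *Fbxo32*, *Trim54*, *Trim55* and *Cavin4* were lower in 4 mice and higher in m866, as were 26.7% of tested genes. In m864, which had the highest leukocyte sum and the lowest fibre sum of the HRS legs, each of the 5 genes that passed had its largest difference. *Fbxo30* was higher in the HRS leg of 5 of 5 mice, as were 26.3% of tested genes, by 0.05 to 0.51 on the log2 scale. The smallest two-sided p that exact sign flips over 5 mice can give is 0.0625, reached by *Klf15* and *Fbxo30*, which each moved 1 way in 5 of 5 mice.

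**Figure D2:**
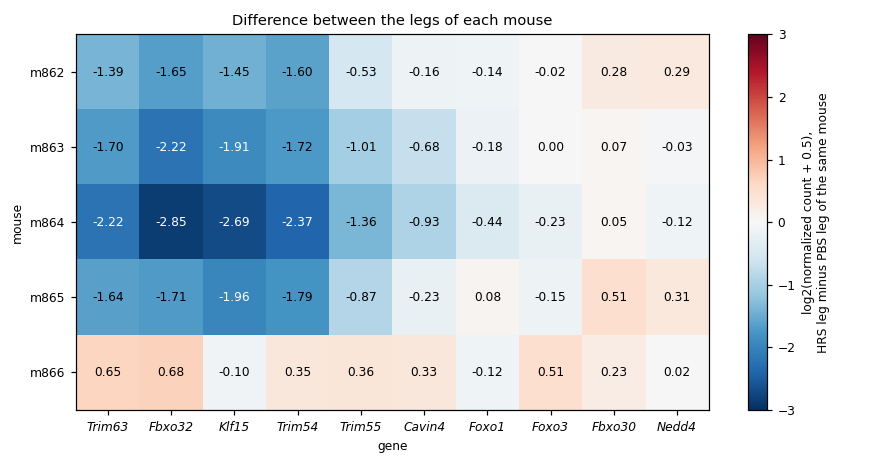
Difference in log2(normalized count + 0.5) between the HRS leg and the PBS leg of each of 5 mice (rows) for the 10 genes (columns); blue is lower and red higher in the HRS leg. The first 5 columns are blue in m862 to m865, deepest in m864 (down to -2.85 for *Fbxo32*), and in m866 only *Klf15* (-0.10) and *Foxo1* (-0.12) are below 0.

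Against the PBS-only mice, the question was whether HRS legs differed from muscle of animals that had received no antigen. The same 5 genes passed as lower, where 22.6% of tested genes did, and 4 were called lower, where 5.87% were. *Fbxo32* had the largest difference, with a log2 fold change of -1.89 (SE 0.41, adjusted p = 0.00153), that is 27.0% of the PBS-only level. *Klf15* followed at -1.47 (adjusted p = 0.00236), *Trim54* at -1.39 (adjusted p = 0.00291), *Trim63* at -1.11 (adjusted p = 0.0117) and *Trim55* at -0.81 (adjusted p = 0.00299). The other 5 genes lay between -0.32 (*Cavin4*) and 0.21 (*Fbxo30*) and did not pass. The median over the 10 genes was -0.56, beside 0.15 over all tested genes. Because the 4 PBS-only libraries came from 2 mice, the legs were also averaged per mouse, and *Trim63* then no longer passed (adjusted p = 0.0626). This comparison and the previous one share the HRS legs and are not independent of each other. Without the HRS leg of m866 the 5 genes lay between -0.97 (*Trim55*) and -2.32 (*Fbxo32*) and passed, where 27.4% of tested genes were lower.

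The 4 HRS legs other than m866 lay entirely below all 9 PBS libraries in *Trim63*, *Fbxo32*, *Klf15*, *Trim54* and *Trim55*, as they did in 20.3% of tested genes. This leg was left out after its values had been seen.

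The contralateral PBS legs were compared with PBS-only mice to ask whether the opposite leg of an immunized mouse differed from that of a mouse without antigen. None of the 10 genes passed, by limma, and none had an unadjusted p below 0.05. Their log2 fold changes lay between -0.34 for *Fbxo32* (95% interval -1.22 to 0.54) and 0.22 for *Foxo1* (95% interval -0.19 to 0.63), and every gene overlapped between the groups. Only 0.00609% of tested genes, or 1 gene, passed in this comparison, and 5.5% had an unadjusted p below 0.05. The interval of *Fbxo32* leaves room for a level more than 2-fold lower in the contralateral legs.

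In the HRS-MBP mice the 5 genes were also lower than in PBS-only mice, and *Cavin4* passed in addition. These were 6 of 10 genes, where 23.8% of tested genes passed as lower, and 5 of 10 called lower, where 10.2% were. *Fbxo32* was at 13.8% of the PBS-only level, a log2 fold change of -2.85 (SE 0.53, adjusted p = 0.000515). *Trim54* (-1.80, adjusted p = 0.00321), *Trim63* (-1.74, adjusted p = 0.00438), *Klf15* (-1.52, adjusted p = 0.00939), *Trim55* (-1.11, adjusted p = 0.00226) and *Cavin4* (-0.98, adjusted p = 0.00322) followed. The remaining 4 genes lay between -0.30 (*Nedd4*) and 0.23 (*Foxo1*). Both HRS-MBP libraries were below all 9 PBS libraries in these 6 genes, as they were in 27.0% of tested genes. With 2 mice in the group, *Klf15* no longer passed without m860 (-1.31, adjusted p = 0.0884), nor *Cavin4* without m861 (-0.65, adjusted p = 0.0825).

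If the titles of the HRS-MBP mice are followed, they and the HRS legs differed both in the protein given and in its concentration (2 to 3 against 3 to 5 mg/mL), which cannot be told apart. Between them none of the 10 genes passed by limma, although 2 of them, *Cavin4* and *Fbxo30*, had an unadjusted p below 0.05, and 0.56% of all tested genes passed (14.4% at an unadjusted p below 0.05). *Fbxo32* differed by -0.96 (95% interval -2.06 to 0.13, adjusted p = 0.4), *Cavin4* by -0.67 (95% interval -1.16 to -0.18, adjusted p = 0.212), *Trim63* by -0.63 (95% interval -1.54 to 0.28) and *Foxo1* by 0.18. *Fbxo30* was the 1 gene whose HRS-MBP libraries (12.2 and 14.6) both lay below the 5 HRS legs (15.3 to 20.3), as did those of 8.4% of tested genes. With 1 library left out at a time, the difference of *Cavin4* ranged from -0.335 without m861 to -1.003 without m860, and it passed only without the HRS leg of m864 (-0.79, adjusted p = 0.0372).

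Markers of the muscle fibre and of leukocytes moved with the fall of the 5 genes. Of 18 genes of the muscle fibre, 14 passed as lower in HRS against contralateral PBS legs and none as higher, and their median fold change was -1.12 on the log2 scale. *Actn3*, the fast-fibre alpha-actinin, was the largest of these falls at -1.43 (SE 0.40, adjusted p = 0.00713). All 13 leukocyte markers passed as higher, by a median of 3.29, led by *Adgre1* (F4/80, of macrophages) at 4.13 (SE 0.34, adjusted p = 1.56e-06). The leukocyte sum was 984 to 4924 normalized counts in HRS legs, 3740 and 4109 in HRS-MBP mice, 73.8 to 221 in contralateral PBS legs and 74.6 to 170 in PBS-only libraries. At least 1 of *Cd8a*, *Cd79a* and *Ms4a1* was at 0 in 4 of the 9 PBS libraries. The fibre sum was 52316 to 212102 in HRS legs, 84931 and 86170 in HRS-MBP mice, 154632 to 254240 in contralateral PBS legs and 191712 to 233434 in PBS-only libraries. The part of cell makeup in the fall of the ligases was not tested beyond the rescaling that follows.

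Each library was therefore also scaled to the geometric mean of the 18 fibre genes, which shifted the median of all tested genes on the log2 scale from 0.08 to 1.04. On this scale *Fbxo32* (-0.48, adjusted p = 0.0344), *Klf15* (-0.57, adjusted p = 0.0134) and *Trim54* (-0.36, adjusted p = 0.0296) were still lower in HRS than in contralateral PBS legs. *Trim63* was at -0.19 and no longer passed (adjusted p = 0.266), but without the HRS leg of m866 it was at -0.35 and passed (adjusted p = 0.0132). *Trim55* changed sign to 0.38 (adjusted p = 0.0254). *Cavin4* (0.73), *Foxo1* (0.89), *Foxo3* (1.08), *Nedd4* (1.16) and *Fbxo30* (1.26) passed as higher. That made 3 of 10 genes lower, where 1.69% of tested genes were, and 6 of 10 higher, where 77.1% were. Without the HRS leg of m866 the counts were 4 lower (2.32% of tested genes) and 6 higher (82.3%). Relative to the median of all genes under the same scaling, *Trim63* was at -1.24 and *Trim55* at -0.66, while *Foxo3* was at 0.04 and *Nedd4* at 0.12. Subtracting that median largely undoes the scaling, so these values are close to those as deposited and are not a separate result. Against PBS-only mice, *Fbxo32* (-0.86, adjusted p = 0.00246) and *Trim54* (-0.36, adjusted p = 0.0381) passed as lower and *Klf15* did not (-0.46, adjusted p = 0.0522) unless the HRS leg of m866 was left out (-0.589, adjusted p = 0.00691). *Trim63* was near 0 on this scale, at -0.08 (95% interval -0.44 to 0.28, adjusted p = 0.663), and at -0.237 without that leg (adjusted p = 0.0945). The genes passing were 2 of 10 lower and 5 higher, where 1.78% and 75.6% of tested genes were, and without that leg 3 lower and 5 higher, where 2.36% and 82.0% were. In the HRS-MBP mice *Fbxo32* (-1.56, adjusted p = 0.000395) and *Trim54* (-0.50, adjusted p = 0.0306) passed as lower, 2 of 10 genes where 1.44% of tested genes did, and 4 passed as higher, where 69.8% did. *Fbxo32* and *Trim54* were thus lower under both scalings in all 3 of these comparisons.

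Expressed per 1000 units of the fibre mean, *Fbxo32* was 48.5 ± 13.9 (SD) in the 4 HRS legs other than m866, 33.2 ± 4.67 in the 2 HRS-MBP libraries and 85.6 ± 13.9 in the 9 PBS libraries. *Trim63* was 38.0 ± 4.63, 32.7 ± 1.55 and 46.6 ± 4.42 in the same groups. All 5 HRS legs had 57.0 ± 22.4 for *Fbxo32* and 43.3 ± 12.7 for *Trim63*. Both genes overlapped the PBS libraries with and without m866: *Fbxo32* ran from 39.8 to 69.1 in the 4 HRS legs and to 90.8 with m866, against 64.5 to 104 in PBS libraries, and *Trim63* from 31.2 to 41.5 and to 64.8, against 41.2 to 55.6. *Foxo3* was 13.6 ± 4.53 in the 4 HRS legs, 13.0 ± 1.61 in HRS-MBP and 5.31 ± 0.44 in PBS libraries. All 5 HRS legs had 12.2 ± 5.04 (6.5 to 19.7) for *Foxo3*, against 4.62 to 6.11 in PBS libraries. *Nedd4* was 159 ± 37.1 in the 4 HRS legs, 124 ± 23.3 in HRS-MBP and 60.1 ± 11.0 in PBS libraries. In all 5 HRS legs *Nedd4* was 140 ± 54 (61.9 to 201), which overlapped the PBS libraries (47.2 to 82.1). The fitted log2 fold changes after fibre scaling, against contralateral PBS legs, were 1.08 for *Foxo3* and 1.16 for *Nedd4*. The median over all tested genes was 1.04.

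**Figure D3:**
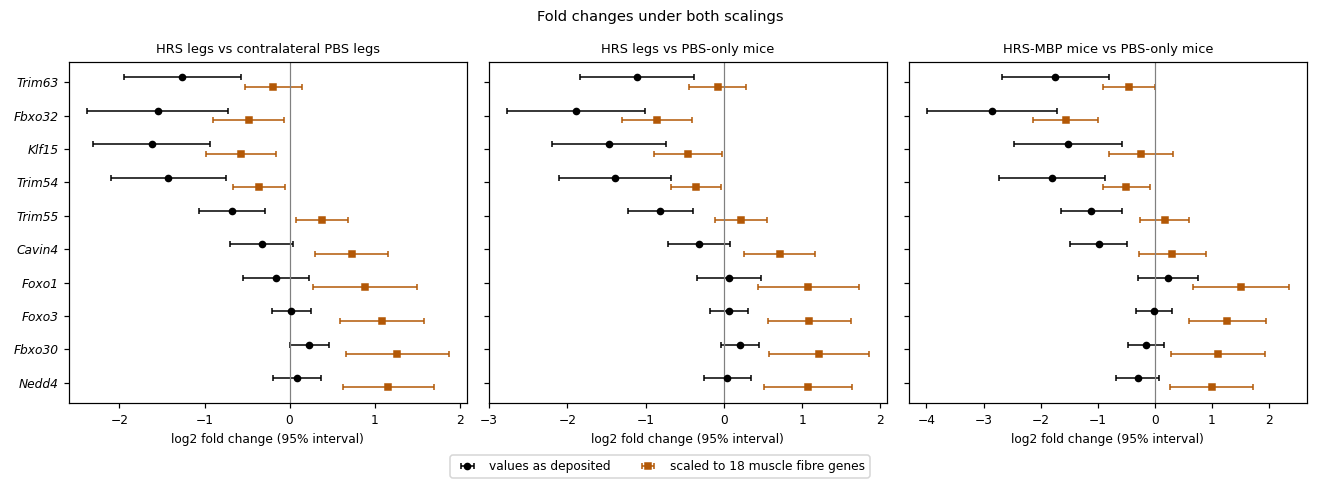
Fitted log2 fold change with its 95% interval (x axis) of the 10 genes (y axis) in 3 comparisons, with the values as deposited (black circles) and after scaling each library to 18 muscle fibre genes (brown squares). Scaling moves every gene to the right; *Fbxo32* and *Trim54* stay below 0 with intervals that exclude it in all 3 panels, whereas the interval of *Trim63* includes 0 after scaling in each.

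Over the 16 libraries the genes that fell varied together. The Pearson correlation of log2 values was 0.97 between *Trim63* and *Fbxo32*, 0.98 between *Trim63* and *Trim54* and 0.96 between *Trim63* and *Klf15*, whereas it was 0.27 between *Trim63* and *Foxo1* and 0.29 between *Trim63* and *Foxo3*. These are descriptions over libraries that share the treatment difference and the fibre content. Among 11244 genes with a mean of at least 5, those closest to *Trim63* were *Ttll7*, *Vdac3* and *Tmem70* (each 0.989). Closest to *Fbxo32* were *Asb2* (0.991), *Fermt2* (0.989) and *Msrb3* (0.987), and closest to *Klf15* were *Vegfb* (0.995), *Acadm* (0.994) and *Slc2a4* (0.994).

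Lists of neighbouring pathway genes were read in the same comparison of HRS with contralateral PBS legs. Of 20 other ubiquitin ligases of muscle, 13 passed as lower and 2 as higher (median -0.29). The largest fall was that of *Asb2*, a cullin-ligase subunit, at -1.70 (SE 0.37, adjusted p = 0.00166), from 932 ± 161 to 365 ± 326 normalized counts (SD, n = 5 each). *Asb2* ran from 118 to 936 in HRS legs (median 261), which overlapped the 670 to 1060 of the contralateral PBS legs. The largest rise was that of *Itch*, a HECT ligase, at 0.48 (SE 0.12, adjusted p = 0.0033). Of 40 ubiquitin, conjugating-enzyme and proteasome genes, 19 passed as lower and 1 as higher (median -0.25). *Ube2b*, an E2 enzyme linked to muscle proteolysis, fell by 1.14 on the log2 scale (adjusted p = 0.00268), and the proteasome subunit *Psma5* rose by 0.27 (adjusted p = 0.0152). On the deposited scale, falls in the ubiquitin system were therefore not limited to the 10 genes. The median of the 18 fibre genes was -1.12 in the same comparison, and these lists were not read after fibre scaling.

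Genes known as FOXO targets or of autophagy were mixed, with 8 of 19 lower and 3 higher (median -0.18). *Bnip3*, a mitophagy receptor, fell by 1.15 (adjusted p = 0.00196), and *Cdkn1a*, the p21 cell cycle inhibitor, rose by 1.34 (adjusted p = 0.00105). Of 14 glucocorticoid-responsive genes, 7 were lower and 4 higher (median -0.35), from *Zbtb16* at -1.54 (adjusted p = 0.00252) to the metallothionein *Mt2* at 2.18 (adjusted p = 2.74e-05). Of 19 genes of growth signalling, 8 were lower and 5 higher (median -0.31). *Igf1*, whose signal restrains FOXO, rose by 1.99 (SE 0.43, adjusted p = 0.00144), from 37.8 ± 21.6 to 162 ± 78.4 normalized counts (n = 5 each), and *Mstn*, the growth inhibitor myostatin, fell by 1.96 (SE 0.39, adjusted p = 0.000853), from 82.6 ± 18 to 27.8 ± 28.0. Of 6 cavin and caveolin partners of *Cavin4*, only *Cavin2* passed, at -0.72 (adjusted p = 0.00953), and *Cavin3* passed as higher when either leg of m866 was left out (0.84 without the HRS leg, 0.96 without the PBS leg).

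Cytokine and NF-kappaB genes, known as inflammatory inducers of muscle wasting, were higher in HRS legs. Of 13 tested, 12 passed as higher and none as lower (median 0.88), led by *Il1b* at 3.91 (SE 0.44, adjusted p = 8.94e-06). *Il1b* was near the floor in contralateral PBS legs, at 0.0641 to 0.508 normalized counts, beside 2.65 to 31.1 in HRS legs. The size of its fold change therefore depends on the 0.5 added to each value. All 13 leukocyte markers also passed as higher (median 3.29), and the part of cell makeup in the rise of this list was not tested. The summed level of the list was also higher in the HRS leg of m866, at 525 normalized counts against 344 in its PBS leg, beside 562 to 946 in the other HRS legs. The leukocyte sum of that leg was 984 against 182 in its PBS leg. A link between this list and the 5 genes that fell was not tested. Over all tested genes 5764 passed as higher and 4255 as lower, so that 35.1% and 25.9% are the shares beside which these list counts stand.

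**Figure D4:**
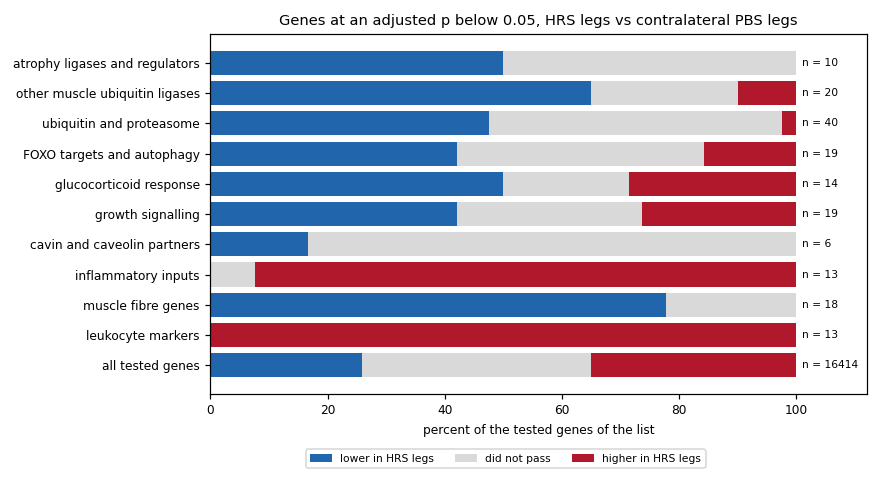
Share of the tested genes of each list (x axis, percent) that passed as lower (blue), passed as higher (red) or did not pass (grey) between HRS legs and contralateral PBS legs, with the number tested at the right. The 10 atrophy genes show 5 lower and 0 higher, other muscle ubiquitin ligases 13 of 20 lower, inflammatory inputs 12 of 13 higher and all tested genes 4255 lower and 5764 higher of 16414.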

How the data were processed

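RNA of hamstring muscle was measured in 16 mouse libraries, made by poly(A) selection with a directional kit and sequenced on 3 Illumina instruments; which library ran on which instrument was not given. The authors deposited normalized counts, read as a linear signal with no value below 0. The submitters' processing notes name STAR 2.7.8a, limma and the build mm39 (GRCm39), but the gene positions in the deposited table are those of GENCODE M21 on GRCm38 for 99.0% of the 25652 genes matched by symbol and chromosome, including all 10 genes reported, so positions are given on GRCm38. The counter, the scaling and the use of strand in counting are not given in the sources used here, so reads of overlapping or antisense genes are uncertain. Between 74.4% and 76.3% of the low values fell on a whole number of steps (within 0.02 of a step), too few to recover reads, so no count model was run, and the step served only to imply the depth.

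Groups were taken from the labels. Genes averaging 0.5 or more in the 16 libraries were fitted by limma 3.58.1 (lmFit, then eBayes with its trend option) in R 4.3.3. The fitted values were log2(normalized count + 0.5), with Benjamini-Hochberg adjustment over 16414 genes. The fit was tested on simulated data. Leg pairs were compared by exact two-sided sign flips. The 2 legs of m862 to m866 come from the same animals, so the mouse numbers pair them; deviations from the group means had correlations of 0.119, 0.163, 0.097, -0.026 and -0.366 across genes, and the fit behind the text had no block. Alternatives were other pseudocounts, filters and scalings, no trend, a mouse block, fewer groups, averaged PBS-only legs and each library left out; those leaving out both legs of m866, or the HRS leg of m866 under fibre scaling, were chosen after seeing the data.

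The 10 genes and the lists (other muscle ubiquitin ligases, ubiquitin and proteasome, FOXO targets and autophagy, glucocorticoid response, growth signalling, inflammatory inputs, cavin partners, and markers of muscle fibres, leukocytes, fibroblasts, endothelium, adipocytes and regenerating muscle) were chosen with earlier results of these data known. Named were all 10 genes, the largest rise and the largest fall of each list among genes passing between HRS and contralateral PBS legs, and the 3 genes correlated most with *Trim63*, *Fbxo32* and *Klf15*.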

Additional observations from a re-analysis of the deposited data

Results flagged for a closer look

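In 8 of 30 sets of values (10 genes in each of the 3 groups of 4 or 5 libraries) the highest or lowest library lay far from the rest by Dixon's criterion, which chance alone meets in about 1 of 20 such sets. The HRS leg of m866 was the highest of its group in 5 of them. *Trim63* was 428 normalized counts there and at most 132 in the other HRS legs, *Fbxo32* was 600 against at most 207, *Trim54* 371 against at most 148, *Klf15* 59.5 against at most 22.7, and *Foxo1* 48.9 against at most 32.8. The PBS leg of m866 was the lowest contralateral leg for *Cavin4*, at 114 against at least 175, and for *Foxo3*, at 29.9 against at least 37.8. In PBS-only mice *Foxo3* was lowest in the library of least depth (m868, right), at 30.7 against at least 38.4. The sets share libraries and are not independent of each other.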

How the results depend on the processing

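The direction of *Trim63*, *Fbxo32*, *Klf15* and *Trim54* in HRS legs, against either PBS group, held in every alternative run, although *Trim63* was close to 0 when scaled to fibre genes against PBS-only mice (-0.081, adjusted p = 0.663). The mouse block and the averaging of PBS-only legs bear on *Trim55* and *Trim63*, the HRS-MBP group had 2 mice, and the shallowest library had 8600000 implied reads; without it *Foxo1* (-0.064), *Foxo3* (-0.014) and *Nedd4* (-0.045) changed sign against PBS-only mice, none of the 3 passing with or without it. The cause of the changes listed next was not tested, other than that a stricter filter tests fewer genes.

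With mouse as a replicate block in the paired legs, 3652 genes were called instead of 3810 and 4 of the 10 genes passed as lower instead of 5, *Trim55* (-0.68) being the one lost at an adjusted p of 0.0579; the block moved no other of the 10 genes across the threshold.

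A filter at a mean of 5 reduced the genes called to 2510 for HRS against contralateral PBS legs, from 4063 to 2650 for HRS legs against PBS-only mice, and from 76 to 13 for HRS-MBP mice against HRS legs. Fitting only the 2 groups compared left 4 genes called in the last of these. For contralateral PBS legs against PBS-only mice, where 1 gene was called, the count was 0 with the smaller pseudocount, with no filter, with a filter at 5, with fibre scaling, with only the 2 groups or with averaged PBS-only legs, and 2 with quantile normalization; without 1 library it was 0 to 2.

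Scaling to fibre genes, which moved the median of all genes to 1.04, 1.08 and 1.28 in the 3 comparisons that follow, raised the genes called to 8660 (10406 without the HRS leg of m866) against contralateral PBS legs, to 8890 (10529) against PBS-only mice and from 5071 to 9907 for HRS-MBP mice. Of the 10 genes, 3 (4 without that leg) then passed as lower and 6 (6) as higher against contralateral PBS legs, 2 (3 without it) as lower and 5 (5) as higher against PBS-only mice, and 2 as lower and 4 as higher in HRS-MBP mice. Signs reversed against contralateral PBS legs for *Foxo1* (0.89, and 0.99 without that leg), *Cavin4* (0.73 and 0.94) and *Trim55* (0.38 and 0.47), against PBS-only mice for *Cavin4* (0.72 and 0.92) and *Trim55* (0.22 and 0.30), and in HRS-MBP mice for *Cavin4* (0.31), *Trim55* (0.18), *Nedd4* (1.0), *Fbxo30* (1.11, adjusted p = 0.0195) and *Foxo3* (1.27, adjusted p = 0.00363). The scaling moves all genes of a library alike, and the cause of these reversals was not tested. Relative to the median, *Cavin4*, *Trim55* and *Foxo1* were at -0.31, -0.66 and -0.15 against contralateral PBS legs. Against PBS-only mice *Cavin4* and *Trim55* were at -0.36 and -0.86 relative to it. In HRS-MBP mice *Cavin4*, *Trim55*, *Nedd4*, *Fbxo30* and *Foxo3* were at -0.97, -1.10, -0.28, -0.17 and -0.0. Subtracting the median largely undoes the scaling, so these values are close to those as deposited.

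Under quantile normalization, which moved the median of all genes to -0.16 against contralateral PBS legs, 1 of the 10 genes passed as higher (*Nedd4*, 0.43, adjusted p = 0.0197), *Fbxo30* passed as lower in HRS-MBP against PBS-only mice (-0.54, adjusted p = 0.00519; 7 genes lower instead of 6), and signs reversed for *Fbxo30* (-0.038, and -0.13 against PBS-only mice), *Foxo3* (-0.048, and -0.059 against PBS-only mice), *Foxo1* against PBS-only mice (-0.122) and *Nedd4* in HRS-MBP mice (0.065). *Foxo3* was also -0.053 with median-of-ratios scaling and -0.10 without both legs of m866. Median-of-ratios scaling also reversed *Foxo1* (-0.08), *Foxo3* (-0.07) and *Nedd4* (-0.095) against PBS-only mice. With median-of-ratios scaling *Cavin4* passed as lower in HRS legs, at -0.41 (adjusted p = 0.0411) against contralateral PBS legs and -0.45 (adjusted p = 0.0347) against PBS-only mice.

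Leaving out 1 library at a time gave 5 to 6 of the 10 genes lower and 0 to 1 higher against contralateral PBS legs, 1 being *Fbxo30* without the PBS leg of m863, and *Foxo3* ranged from -0.057 to 0.061. Against PBS-only mice *Foxo1* ranged from -0.086 to 0.158, *Foxo3* from -0.014 to 0.105 and *Nedd4* from -0.045 to 0.121, and in HRS-MBP mice *Foxo3* from -0.136 to 0.12. For HRS-MBP mice against HRS legs, 25 (without m861) to 590 (without the HRS leg of m864) genes were called, with 180 without the HRS leg of m866 and 135 without m860, and 0 to 1 of the 10 genes passed as lower.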

Other observations

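Other cell types of the muscle were read from marker lists, with HRS legs set against contralateral PBS legs. In this comparison 35.1% of all tested genes passed as higher and 25.9% as lower. All 6 fibroblast markers passed as higher (median log2 fold change 2.33), led by the collagen gene *Col1a1* at 3.40 (SE 0.64, adjusted p = 0.000595). Of 6 genes of regenerating muscle 3 were higher and none lower, led by embryonic myosin *Myh3* at 3.48 (SE 1.02, adjusted p = 0.00862). In the HRS leg of m866 both were at the low end of their group, *Col1a1* at 506 normalized counts against a group median of 6390 and *Myh3* at 3.94 against a median of 350. Of 4 adipocyte markers 3 were lower, led by *Lep* at -2.43 (SE 0.86, adjusted p = 0.0229). The PBS leg of m866 had a summed adipocyte level of 2310 against 235 to 459 in the other contralateral legs; without it 1 of the 4 passed as lower and *Lep* was at -1.71 (adjusted p = 0.0586), and against PBS-only mice none of the 4 passed by limma (1 had an unadjusted p below 0.05). Of 5 endothelial markers 1 passed as higher, *Pecam1* at 0.35 (adjusted p = 0.00393), and 1 as lower, *Kdr* at -0.32 (adjusted p = 0.0257). Without the PBS leg of m866 *Kdr* did not pass (-0.29, adjusted p = 0.0514) and *Emcn* passed as higher (0.42, adjusted p = 0.0108). Without the HRS leg of m866 *Emcn* also passed as higher (0.34, adjusted p = 0.0471), and *Tek* passed as lower (-0.43, adjusted p = 0.00978).

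The share of mitochondrially encoded transcripts was 3.41% to 6.29% in the HRS legs other than m866, 11.1% in that leg, 5.94% and 6.98% in HRS-MBP mice, and 9.69% to 13.1% in the 9 PBS libraries.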
